A study of Mus musculus with 27 samples.

Results

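Phase II conjugation enzymes join a water-soluble group to drugs, hormones, bile acids and reactive lipids. The genes described here are those of the glutathione transferases, the sulfotransferases and the Ugt2 and Ugt3 glycosyltransferases. They were chosen by symbol, as array features carrying a single gene symbol that begins with Gsta, Gstm, Gstp, Gstt, Gstk, Gsto, Mgst, Sult, Ugt2 or Ugt3, with Sult3a1 left out. This gave 43 of the 18820 genes that the arrays name. They were measured in livers of 27 male C57BL/6J mice killed at 28 months of age, with 1 array per mouse. The control group (C, n = 8) ate AIN-93W ad libitum. The calorie-restricted group (CR, n = 5) received AIN-93W-CR in daily portions, a 30% restriction. The medium-fat group (MF, n = 7) ate AIN-93W-MF, with 25% of energy as fat, ad libitum. The diet-switch group (CR-MF, n = 7) lived on CR up to the age of 24 months and on ad libitum MF, reached over stepwise larger portions, for the last 4 months. All diets began at 9 weeks of age. Every mouse was housed alone, fasted for 4 h, given carboxymethyl cellulose by gavage and fasted for another 6 h. CR mice ate part of their portion 15 min before the first fast, so meal timing and the CR diet cannot be told apart. Only males of 1 inbred strain were studied.

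In the liver these enzymes work mainly in hepatocytes. Glutathione transferases attach glutathione to electrophiles, sulfotransferases move a sulfate from the donor PAPS to hydroxyl groups, and UDP-glucuronosyltransferases add glucuronic acid from UDP-glucuronic acid. The conjugates then leave the cell through transporters towards bile or blood. In rodents many of these genes differ between the sexes and respond to growth hormone, nuclear receptors and electrophile stress.

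Many of the genes lie side by side, and 11 of them occupy 1 stretch of chromosome 5 (GRCm38.p6, chr5:86889770-87591611). It holds Ugt2b34, Ugt2b1, Ugt2b35, Ugt2b36, Ugt2b5, Ugt2b37, Ugt2a3, Ugt2b38, Sult1b1, Sult1d1 and Sult1e1, in that order. The 6 Gstm genes lie within 118.8 kb of chromosome 3 and the 4 Gstt genes within 63.3 kb of chromosome 10. RefSeq promoter windows were found for 40 of the 43 genes. The 250 bases before the transcription start are shown for the 5 genes that differed between diets in at least 1 comparison below. For Sult2a8 the start used lies inside the annotated gene, which reaches to base 14446780, so part of its window is within the gene. All 5 are on the minus strand and are written 5′ to 3′ towards the start. Capitals mark the heptamer TGANTCA, a loosened form of the core of an AP-1 element with any base in its middle, searched on both strands. As written, the middle base is G in Gstp1 and A in Ugt2b1.
Gstp1 (chr19:4037913-4038162): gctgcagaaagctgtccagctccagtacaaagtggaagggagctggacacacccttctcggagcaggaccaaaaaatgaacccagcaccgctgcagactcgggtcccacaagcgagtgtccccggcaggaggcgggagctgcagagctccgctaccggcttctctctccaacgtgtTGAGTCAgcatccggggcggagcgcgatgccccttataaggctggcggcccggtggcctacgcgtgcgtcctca
Gstm2 (chr3:107986421-107986670): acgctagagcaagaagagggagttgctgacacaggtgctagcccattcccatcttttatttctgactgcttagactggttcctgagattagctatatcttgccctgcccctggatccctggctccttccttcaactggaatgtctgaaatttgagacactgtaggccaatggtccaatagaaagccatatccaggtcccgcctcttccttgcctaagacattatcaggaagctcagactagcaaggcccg
Ugt2b1 (chr5:86926504-86926753): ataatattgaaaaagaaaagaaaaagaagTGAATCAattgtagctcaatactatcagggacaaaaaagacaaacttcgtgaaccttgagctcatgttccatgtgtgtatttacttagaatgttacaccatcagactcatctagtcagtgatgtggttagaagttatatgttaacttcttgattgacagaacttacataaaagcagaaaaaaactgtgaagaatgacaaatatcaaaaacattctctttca
Ugt2a3 (chr5:87337196-87337445): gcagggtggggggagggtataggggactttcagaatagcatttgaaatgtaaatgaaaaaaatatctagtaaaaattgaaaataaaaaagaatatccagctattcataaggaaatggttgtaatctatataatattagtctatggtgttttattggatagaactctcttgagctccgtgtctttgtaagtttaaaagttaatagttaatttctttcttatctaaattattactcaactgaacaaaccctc
Sult2a8, the more upstream of its 2 listed starts (chr7:14446588-14446837): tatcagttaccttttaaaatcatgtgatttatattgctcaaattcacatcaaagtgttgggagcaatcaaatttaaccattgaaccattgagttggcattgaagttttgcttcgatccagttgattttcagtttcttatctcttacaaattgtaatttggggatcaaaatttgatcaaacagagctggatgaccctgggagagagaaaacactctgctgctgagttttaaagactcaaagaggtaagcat
The heptamer occurred in 6.75% of all 32851 windows of this length and in those of 8 of the 40 genes, among them Gstp1, where it began 74 bases before the start, and Ugt2b1, where it began 221 bases before it. The core of the antioxidant response element, TGACNNNGC, searched on both strands too, was found in 10.2% of all windows and in those of Gsta3, Gstm7 and Mgst1. This search allowed only C after TGA, so the TGAGTCA of Gstp1, followed there by gc, was not counted as a match. A STAT element, TTCNNNGAA, was present in 7.02% of all windows and in that of Gstm6. The shares count windows, whereas a gene was counted if any of its windows matched, and some genes, such as Sult2a8, have more than 1. The counts of genes can therefore not be set against the shares. These are matches of letters in a window and say nothing about binding.

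Of the 43 genes, 35 passed the filter on low and flat signals (5 or more arrays with an intensity above 20, and an interquartile range above 0.1) and were tested. The other 8 (Gsto2, Sult1c1, Sult2a6, Sult2b1, Sult3a2, Sult4a1, Sult6b1 and Sult6b2) had mean log2 intensities between 2.44 and 4.07, all under the log2 limit of 4.32. A further 13 array features of these families carry several symbols, such as those shared by Gstp1 and Gstp2 or by Gsta1 and Gsta2, and were not analysed here. Levels are log2 intensities, on which a difference of 1 is a doubling, and a gene is called changed at an adjusted p under 0.05 over 13993 genes in 1 limma fit of all arrays. Because whole liver was measured, fewer cells of a type and less RNA per cell cannot be told apart. The 7 hepatocyte markers were all measured on these arrays, with a mean level per mouse between 12.86 and 13.21. The array titles carry plate codes, with 19 of the 27 arrays on plate G150 and 1 array per group on each of G151 and G152. Well row H contained all 7 CR-MF arrays and no others, so effects of that row and of the switch cannot be told apart. Row F held all 8 C arrays and 3 CR arrays, and row G all 7 MF arrays and 2 CR arrays. Row and diet thus also go together for C and MF, and only CR was spread over 2 rows.

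Of the 6 comparisons, that of CR-MF with MF, both on the MF diet at the end, had the most called genes. These groups differed in earlier restriction and also in time on the MF diet. CR-MF mice had it for the last 4 months and MF mice from 9 weeks of age, so earlier restriction and time on MF cannot be told apart. Here 3 of 35 genes were higher in CR-MF (Gstp1, Ugt2b1 and Sult2a8; 8.57%, against 0.55% of all genes) and Gstm2 was lower (2.86%, against 0.893% of all genes). This count of 4 became 2 without MF mouse 1, MF mouse 7 or CR-MF mouse 13. It became 8 without MF mouse 13 and 9 without CR-MF mouse 11. These are the largest changes, and many other single omissions also lost or gained a call, as given by gene below. The median difference over the 35 genes was 0.13, against -0.0019 over all genes, and 26 of 35 means were higher in CR-MF.

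Between CR-MF and C, Gstp1 was higher and Gstm2 lower (2.86% each, against 0.136% of all genes higher and 0.164% lower). This count of 2 fell to 0 without C mouse 3, C mouse 9 or CR-MF mouse 13. It fell to 1 without C mouse 1, 17 or 19 or CR-MF mouse 1, 5, 9 or 15, and to 1 on plate G150 alone. The means of the 35 genes split evenly, with 18 higher in CR-MF and 17 lower.

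Between MF and CR, Gstp1 and Ugt2a3 were lower in MF (5.71%, against 2.62% of all genes lower) and no gene was called higher, while 2.8% of all genes were. The share of lower genes is not far from the background of all genes. This count of 2 fell to 0 without CR mouse 1, 3 or 13, on plate G150 alone and when the well row was a block. It was 1 without CR mouse 5 or MF mouse 1, 5, 7, 9 or 11, and rose to 4 without CR mouse 7 and to 5 without MF mouse 13. A call was also gained without some C mice, as given for Ugt2b1 below. Here 25 of 35 means were lower in MF, with a median of -0.14 against -0.0068 over all genes.

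The 3 other comparisons gave 0 called genes with limma, and 0 with the intensity-based moderated statistic (IBMT). Between CR and C, 0.765% of all genes were called higher and 0.808% lower, and 2 of the 35 genes had an unadjusted p under 0.05. One gene was called without C mouse 13 (Ugt2a3), CR mouse 7 (Gstp1) or CR-MF mouse 11 (Gstp1). Between MF and C, 0% of all genes were called in either direction and 1 of the 35 had an unadjusted p under 0.05. Of the 35 means, 28 were lower in MF, with a median difference of -0.093 against 0.0029 over all genes. Many of these genes are neighbours and not independent, and MF mouse 9 was the lowest MF mouse for 18 of them. Between CR-MF and CR, 0.236% of all genes were called higher and 0.364% lower, and 2 of the 35 had an unadjusted p under 0.05. Gstm2 was called there without MF mouse 9. Comparisons with a group in common share its arrays and are not independent of each other.

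**Figure D1:**
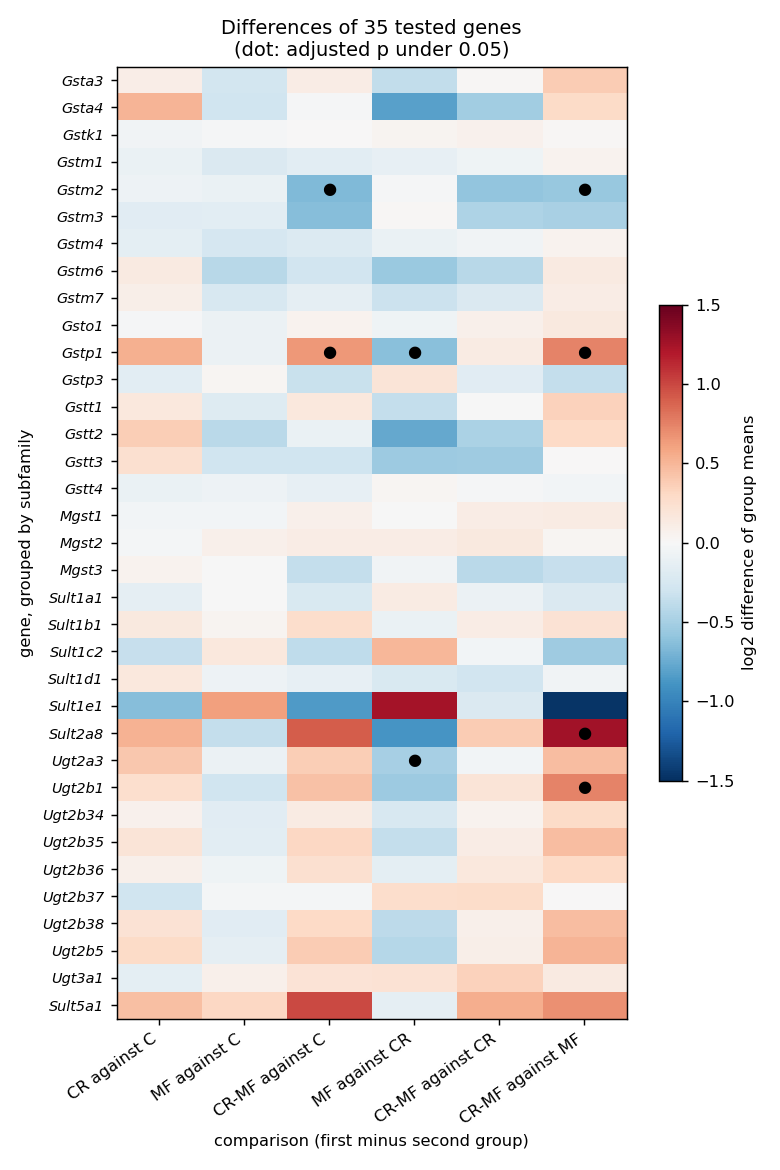
Log2 difference of group means for the 35 tested genes (vertical axis, grouped by subfamily) in the 6 comparisons (horizontal axis, first minus second group), with red for higher in the first group, blue for lower and a dot for an adjusted p under 0.05. The 8 dots lie on 5 genes, with 4 of them in the comparison of CR-MF with MF.

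Gstp1, a pi class transferase, had higher means in CR and CR-MF than in C and MF. Its log2 level was 11.42 to 12.05 in C (median 11.80) and 11.24 to 12.11 in MF (median 11.56). In CR the 5 mice had 11.72, 12.32, 12.39, 12.47 and 12.62, and in CR-MF the levels ran from 11.93 to 12.80 (median 12.39). Except for CR mouse 7, at 11.72, the CR mice lay above all C and MF mice, while CR-MF mouse 11 fell within both ranges. Group means were 11.77 ± 0.19 in the 8 C mice (here and below ± SD), 12.30 ± 0.34 in the 5 CR mice, 12.42 ± 0.31 in the 7 CR-MF mice and 11.67 ± 0.31 in the 7 MF mice.

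The CR-MF level of Gstp1 was 1.68-fold that of MF (log2 difference 0.75, SE 0.14, adjusted p = 0.00874), with all 7 CR-MF mice above the MF mean. The call held without each single mouse (largest adjusted p 0.0253). The difference was 0.96 on plate G150, 0.61 on G151 and -0.19 on G152. It was 1.57-fold higher in CR-MF than in C (0.65, SE 0.14, adjusted p = 0.0344), and 0.79, 0.51 and 0.17 on the same plates. In MF it was lower than in CR by a log2 difference of -0.63 (SE 0.16, adjusted p = 0.0223), or -0.63, -0.93 and -0.21 by plate. The difference of CR from C was 0.54 and was not called (adjusted p = 0.0655), and that of CR-MF from CR was 0.12 (95% interval -0.21 to 0.44). The call against C was lost without C mouse 1, 3, 9 or 17 or CR-MF mouse 1, 5, 9, 13 or 15 (adjusted p 0.0509 to 0.0945). The call between MF and CR was lost without CR mouse 1, 3, 5 or 13 (0.0519 to 0.0615), on plate G150 alone (0.112) and when well rows were blocked (0.094). The near-identical Gstp2 is named together with Gstp1 on other features of this array, so how much of the signal belongs to each is uncertain.

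**Figure D2:**
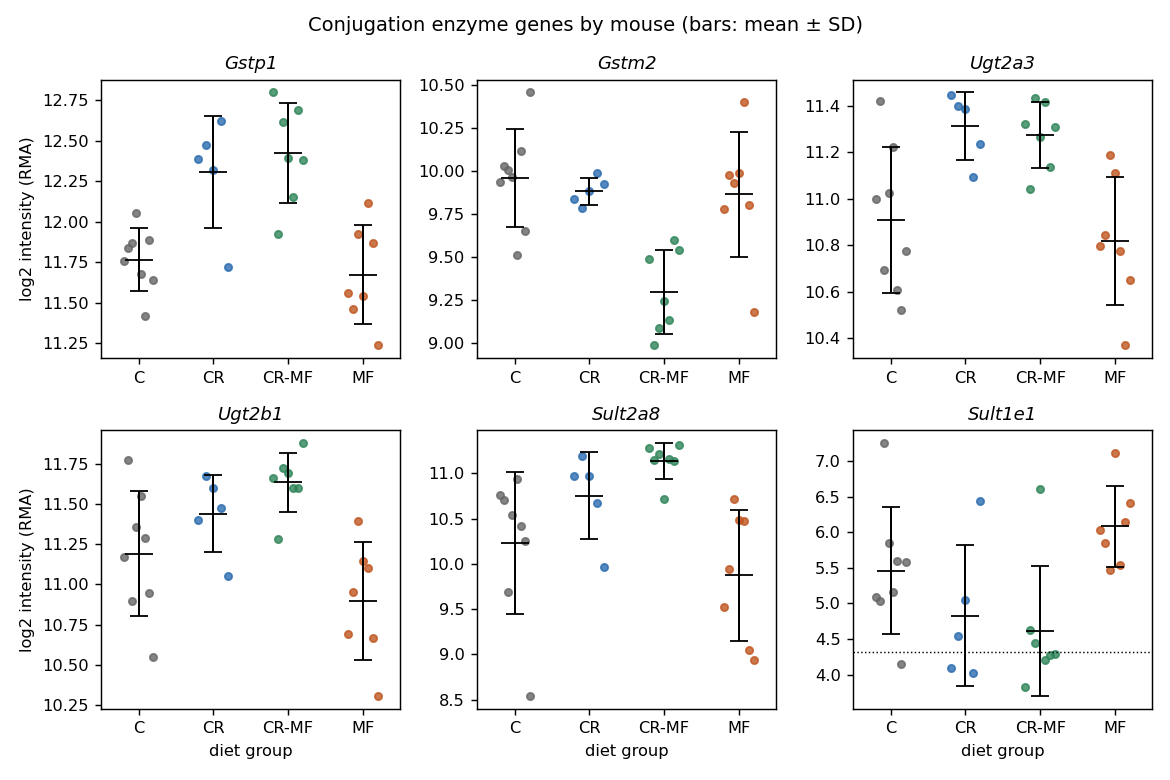
Log2 RMA intensity (vertical axes) of Gstp1, Gstm2, Ugt2a3, Ugt2b1, Sult2a8 and Sult1e1 by diet group (horizontal axis), with 1 point per mouse and bars for mean ± SD; the dotted line in the Sult1e1 panel is the log2 filter limit of 4.32. The CR-MF points of Sult2a8 (10.72 to 11.31) lie above all MF points (8.94 to 10.71), and those of Gstm2 lie below all CR points.

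Gstm2, a mu class transferase, had its lowest mean in CR-MF. The CR-MF mice had 8.98 to 9.60 (median 9.24), against 9.51 to 10.46 in C (median 9.98) and 9.18 to 10.40 in MF (median 9.93). The CR mice were close together at 9.78, 9.83, 9.88, 9.92 and 9.99. CR-MF and CR did not overlap, while C mouse 21 (9.51) and MF mouse 9 (9.18) reached into the CR-MF range. The mean was 9.29 ± 0.24 in CR-MF (SD, n = 7), 9.96 ± 0.29 in C, 9.88 ± 0.08 in CR and 9.86 ± 0.36 in MF.

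The log2 difference of Gstm2 was -0.66 between CR-MF and C (SE 0.14, adjusted p = 0.0255) and -0.57 between CR-MF and MF (SE 0.14, adjusted p = 0.0363). Between CR-MF and CR it was -0.59 and was not called (adjusted p = 0.0776). By plate (G150, G151, G152) the differences from C were -0.49, -1.32 and -0.95 and those from MF -0.34, -0.85 and -1.42. Neither was called on plate G150 alone (adjusted p = 0.104 and 0.254). The call against C was lost without C mouse 3, 9 or 19 or CR-MF mouse 13 (0.0501 to 0.0732). That against MF was lost without MF mouse 1, 5, 7, 11 or 15 or CR-MF mouse 3 or 13 (0.0503 to 0.0914). Mu class genes are known to be strongest around the central vein. All 6 tested markers of pericentral hepatocytes had lower means in CR-MF than in C (median -0.26). For 4 of 6 the CR-MF mean was above that of MF (median 0.02), and for 5 of 6 above that of CR (median 0.13). Against C their median difference was -0.35 in CR and -0.32 in MF, where Gstm2 differed by -0.08 and -0.09. None of these markers was called in these comparisons. Their part in the Gstm2 result was not tested.

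The 5 other Gstm genes did not pass the test in any comparison. All 6 means were lower in CR-MF than in C and lower in CR-MF than in CR, and 4 of 6 were above their MF means. Gstm1 had 12.49 ± 0.18 in C, 12.39 ± 0.17 in CR, 12.33 ± 0.32 in CR-MF and 12.27 ± 0.38 in MF. Gstm3 had 10.38 ± 0.63 in CR-MF against 11.02 ± 0.29 in C, a difference of -0.64 (SE 0.29) that was not called (adjusted p = 0.401). Gstm7 was 10.33 ± 0.39 in MF and 10.66 ± 0.14 in CR, a difference of -0.33 (SE 0.13, adjusted p = 0.13). For Gstm4 and Gstm6 the differences of CR-MF from C were between -0.28 and -0.20. Mu class genes are close relatives, and signal shared among them cannot be separated here.

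**Figure D3:**
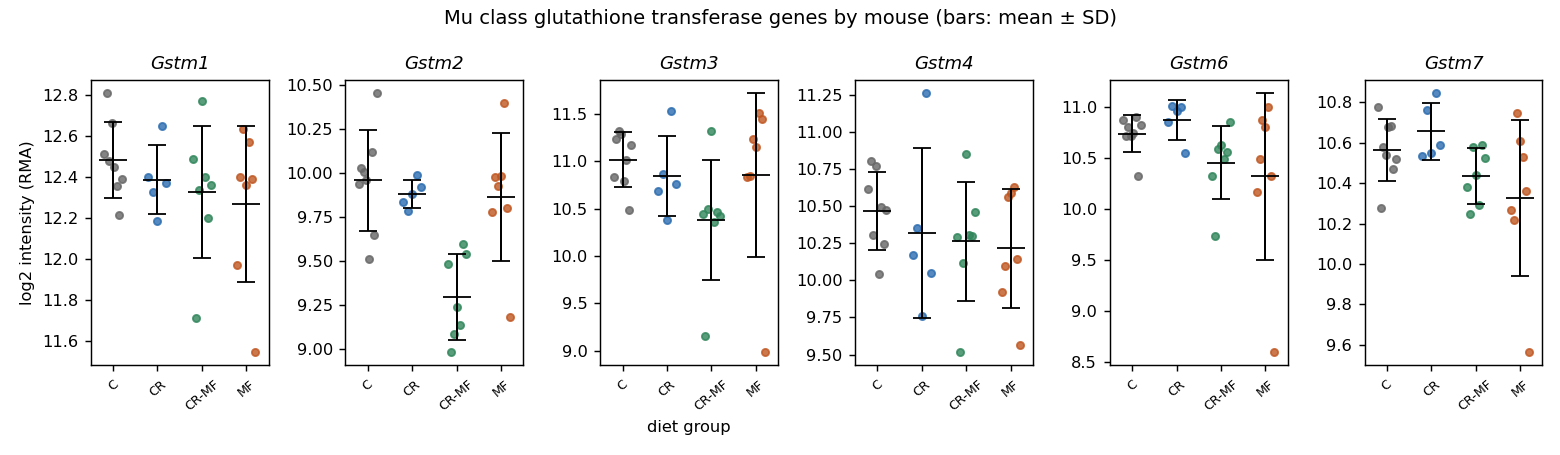
Log2 RMA intensity (vertical axes) of the 6 Gstm genes by diet group (horizontal axis), with 1 point per mouse and bars for mean ± SD. Only for Gstm2 do the CR-MF mice (8.98 to 9.60) lie apart from the CR mice, and MF mouse 9 is the lowest MF point in all 6 panels.

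The other glutathione transferase classes gave no called gene. Gsta3, an alpha class enzyme that detoxifies aflatoxin epoxide in mice, had 12.09 ± 0.12 in C, 12.18 ± 0.10 in CR, 12.19 ± 0.13 in CR-MF and 11.81 ± 0.60 in MF. CR-MF exceeded MF by 0.38 (SE 0.16, adjusted p = 0.268). The MF mice ran from 10.73 to 12.32 (median 12.05), whereas the CR-MF mice ran only from 11.97 to 12.33 (median 12.24). Gstt1, a theta class enzyme that acts on small halogenated compounds, showed a similar spread, with MF levels from 10.89 to 12.36 (median 11.87) and CR-MF levels from 11.97 to 12.24 (median 12.20). The difference was 0.35 (SE 0.15, adjusted p = 0.266), and by plate (G150, G151, G152) it was 0.57, -0.20 and -0.21. Gsta3 gave 0.57, 0.012 and -0.21 by plate.

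The 7 other tested transferases outside the mu class were Gsta4, Gstt2, Gstt3, Gstt4, Gstp3, Mgst2 and Mgst3, and none was called in any comparison. Gsta4, which conjugates the lipid aldehyde hydroxynonenal, had the largest of their differences between MF and CR (-0.81, SE 0.34, adjusted p = 0.149), with MF levels from 6.74 to 9.77. Gstt2 differed there by -0.77 (adjusted p = 0.0881) and was called without MF mouse 13. The CR-MF and CR levels of Gstt3 did not overlap, at a difference of -0.54 (adjusted p = 0.516).

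Gstk1, found in mitochondria and peroxisomes, had means between 12.10 and 12.16. Gsto1, an omega class enzyme that also reduces dehydroascorbate, had means between 9.25 and 9.40. Mgst1, a membrane-bound transferase of the endoplasmic reticulum and mitochondria, had means between 12.45 and 12.57. None of the 3 was called in any comparison, and the 95% intervals for CR-MF minus MF were -0.15 to 0.20 (Gstk1), -0.08 to 0.36 (Gsto1) and -0.03 to 0.26 (Mgst1).

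Sult2a8, a liver sulfotransferase that sulfates bile acids in mice, had the widest called difference. The CR-MF levels ran from 10.72 to 11.31 (median 11.15) and the MF levels from 8.94 to 10.71 (median 9.94), with no overlap. The C mice spanned 8.54 to 10.93 (median 10.48), and the CR mice had 9.96, 10.67, 10.97, 10.97 and 11.20. The means were 11.14 ± 0.20 in CR-MF, 9.87 ± 0.72 in MF, 10.23 ± 0.78 in C and 10.75 ± 0.48 in CR. The CR-MF level of Sult2a8 was 2.40-fold the MF level (log2 difference 1.26, SE 0.30, adjusted p = 0.0317), and by plate 1.50, 0.67 and 0.68.

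The differences of Sult2a8 between CR-MF and C (0.91, adjusted p = 0.242) and between MF and CR (-0.88, adjusted p = 0.112) were not called. The call between CR-MF and MF was lost without MF mouse 1, 7 or 9 or CR-MF mouse 1, 5, 9 or 13 (adjusted p 0.0591 to 0.0777), although the difference stayed between 1.11 and 1.26. Sult2a genes are close copies, and Sult2a1, Sult2a2 and Sult2a4 were on features with several symbols.

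Sult1e1, the estrogen sulfotransferase, ran the other way, with its highest mean in MF. The MF mice had 5.47 to 7.12 (median 6.03) and the CR-MF mice 3.83 to 6.61 (median 4.29). Except for CR-MF mouse 15, at 6.61, the CR-MF mice (up to 4.62) were below all MF mice. The CR mice had 4.02, 4.09, 4.54, 5.04 and 6.44, and the C mice 4.15 to 7.25 (median 5.37). Many of these levels are near the log2 filter limit of 4.32. CR-MF minus MF was -1.47 (SE 0.42, adjusted p = 0.074) and that between MF and CR was 1.25 (SE 0.46, adjusted p = 0.102), and neither was called. The first was called without CR-MF mouse 15 (-1.80, adjusted p = 0.0158) or C mouse 17 (-1.47, adjusted p = 0.0466), and the second without CR mouse 7 (1.66, adjusted p = 0.0386).

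Sult5a1 had 6.79 to 7.94 in CR-MF (median 7.05) and 5.66 to 6.62 in C (median 6.27), which did not overlap, yet its difference of 0.99 (SE 0.26) was not called (adjusted p = 0.108). The CR mice had 6.15, 6.42, 6.44, 6.62 and 7.22. In MF it ran from 5.41 to 7.74 (median 6.33), and the CR-MF minus MF difference of 0.68 (adjusted p = 0.224) was called only without MF mouse 13 (0.90, adjusted p = 0.0434). Sult1c2 had 7.40 ± 0.35 in MF, 6.87 ± 0.53 in CR-MF, 6.90 ± 0.47 in CR and 7.24 ± 0.75 in C, and its largest difference was -0.54 between CR-MF and MF (adjusted p = 0.381). Sult1d1, which sulfates catecholamines in mice, had means between 10.74 and 11.02. For the 2 remaining Sult1 genes, Sult1a1 and Sult1b1, the differences of CR-MF from MF were -0.22 and 0.22.

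The Ugt2b glucuronosyltransferases, which conjugate steroids, bile acids and drugs, leaned to one side. The CR-MF mean was above the MF mean for 7 of 7 Ugt2b genes (median 0.46). It was above the CR mean for 7 of 7 too, but only by 0.05 to 0.27, with no gene called there. The MF mean was above the C mean for 0 of 7. The 7 genes are neighbours of similar sequence, so these are not 7 independent results. Only Ugt2b1 passed the test, and only between CR-MF and MF. Its levels ran from 11.28 to 11.88 in CR-MF (median 11.66), from 10.31 to 11.40 in MF (median 10.96) and from 10.55 to 11.77 in C (median 11.23). The CR mice had 11.05, 11.40, 11.48, 11.60 and 11.67. CR-MF mouse 11 (11.28) was below the highest MF mouse (11.40), and the other 6 were above it.

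Ugt2b1 had means of 11.63 ± 0.18 in CR-MF, 10.89 ± 0.37 in MF, 11.44 ± 0.24 in CR and 11.19 ± 0.39 in C. Its CR-MF level was 1.67-fold the MF level (log2 difference 0.74, SE 0.16, adjusted p = 0.0174), which held without each single mouse (largest adjusted p 0.0483). By plate it was 0.91, 0.45 and 0.18. The difference between MF and CR was -0.54 (adjusted p = 0.0638), called without C mouse 9 or 13, CR mouse 7 or MF mouse 13 (0.0271 to 0.0499).

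Ugt2b34 had a narrow spread, with 11.93 ± 0.09 in CR-MF, 11.88 ± 0.06 in CR, 11.81 ± 0.17 in C and 11.64 ± 0.21 in MF. The CR-MF minus MF difference was 0.29 (SE 0.08, adjusted p = 0.0667), called without C mouse 5, MF mouse 13 or CR-MF mouse 11 (0.0206 to 0.0487). Its MF minus CR difference of -0.24 (adjusted p = 0.108) was called without MF mouse 13 (-0.28, adjusted p = 0.0418). For the 5 other Ugt2b genes the CR-MF minus MF differences were 0.0046 to 0.51 (adjusted p 0.106 to 0.997), with Ugt2b37 at the low end. Ugt2b genes are similar in sequence, and signal shared among their features cannot be separated here.

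Ugt2a3, a relative of the Ugt2b genes in the same stretch of chromosome 5, was lower in MF than in CR. The CR mice had 11.09, 11.23, 11.39, 11.40 and 11.45, and the MF mice 10.37 to 11.19 (median 10.80), so that 2 MF mice (11.11 and 11.19) were above the lowest CR mouse. The CR-MF mice had 11.04 to 11.43 (median 11.31) and the C mice 10.52 to 11.42 (median 10.89). The MF minus CR difference was -0.49 (SE 0.14, adjusted p = 0.034) and by plate -0.49, -0.29 and -0.62. The CR-MF minus MF difference was 0.46 (SE 0.12, adjusted p = 0.057). The CR minus C difference was 0.40 (adjusted p = 0.0938), and CR-MF differed from CR by -0.04 (95% interval -0.32 to 0.24).

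The Ugt2a3 call between MF and CR was lost without CR mouse 1, 3 or 13 or MF mouse 1, 5, 7, 9 or 11 (adjusted p 0.0507 to 0.0858), on plate G150 alone (0.186) and when well rows were blocked (0.115). The Ugt2a3 difference between CR-MF and MF was called without C mouse 5 or 13, MF mouse 13 or 15 or CR-MF mouse 11 (adjusted p 0.0222 to 0.0486), and that of CR from C without C mouse 13 (0.0463). Ugt3a1, which in humans transfers N-acetylglucosamine, had 10.54 ± 0.24 in CR-MF and 10.19 ± 0.28 in CR, a difference of 0.35 (adjusted p = 0.382), with 10.33 ± 0.35 in C and 10.41 ± 0.29 in MF.

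**Figure D4:**
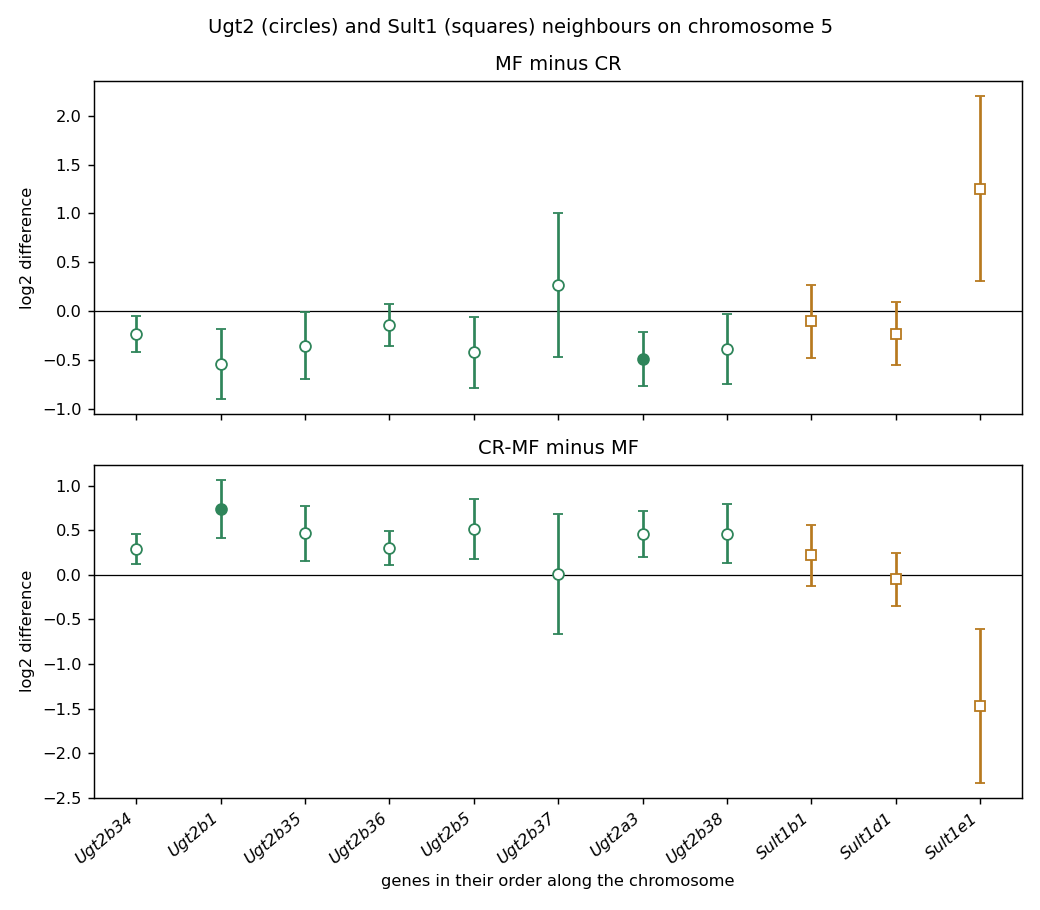
Log2 differences of MF minus CR (upper panel) and CR-MF minus MF (lower panel), with 95% intervals, for 8 Ugt2 genes (circles) and 3 Sult1 genes (squares) in their order along chromosome 5; filled symbols are called. In the lower panel all 8 Ugt2 differences are above 0 and Sult1e1, at the end of the stretch, is at -1.47; both panels use the 7 MF arrays.

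The mice of a group did not vary alike. The median SD over the 35 genes was 0.364 in MF, 0.293 in C, 0.235 in CR-MF and 0.229 in CR, and MF had the widest SD of the 4 groups for 19 of the 35 genes. MF also had the lowest mean for 20 genes and CR-MF the highest for 16. The same counts were not made over all genes, so they are not shown to be particular to these 35. Over the whole transcriptome the paper describes mice of MF, and most of all of CR-MF, as more variable than those of CR. Single mice took the extreme place for many genes. MF mouse 9 was the lowest of its group for 18 of the 35 genes and MF mouse 13 the highest for 17. CR-MF mouse 11 was the lowest CR-MF mouse for 21 genes, with a median deviation of -0.23 from its group means. In CR, mouse 7 was the lowest and mouse 5 the highest for 15 genes each, and in C, mouse 5 was the lowest for 13 and mouse 13 the highest for 14.

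**Figure D5:**
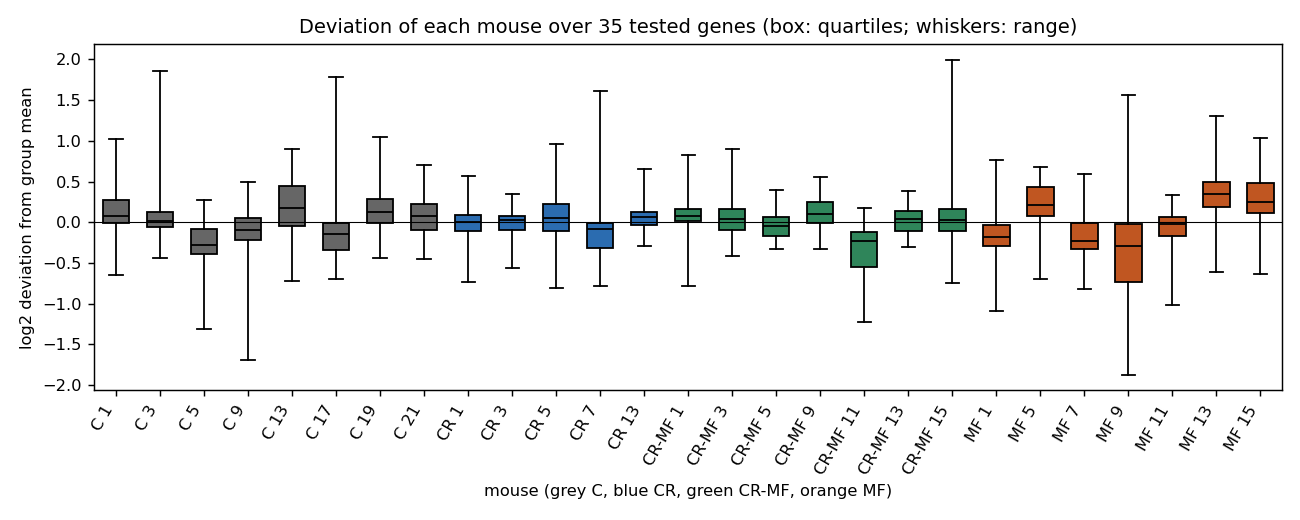
Deviation of each mouse from the mean of its own group in log2 units (vertical axis) over the 35 tested genes, by mouse (horizontal axis), with boxes for quartiles, a line for the median and whiskers for the full range. CR-MF mouse 11 has a median of -0.23 and MF mouse 9 a median of -0.29, while MF mouse 13 is at 0.35.

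Genes that supply the co-substrates gave no call in any of the 6 comparisons. These were 8 tested genes of glutathione supply, 7 of PAPS supply and transport and 7 of UDP-glucuronic acid supply and transport. The glutathione genes had higher means in CR than in C for 8 of 8 (median 0.10). Against C the same held for 7 of 8 in CR-MF (median 0.14) and 6 of 8 in MF (median 0.10). Among 8 tested efflux transporters, Abcc2, which exports conjugates into bile, was lower in MF than in CR (11.52 against 11.90, difference -0.38, SE 0.08, adjusted p = 0.00875), with no overlap. Among 7 genes that process mercapturates and sulfate esters, Ggt5, which cleaves glutathione conjugates, was higher in MF than in CR by 0.57 (adjusted p = 0.0198).

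Of 17 regulators of conjugation genes, Stat5a, a transcription factor downstream of cytokine and growth hormone receptors, was higher in MF than in CR by 0.51 (adjusted p = 0.0131). Bach1, a repressor of antioxidant genes, was lower in MF than in CR (-0.28, adjusted p = 0.0382) and higher in CR-MF than in MF (0.31, adjusted p = 0.0271). Of 19 other conjugation enzymes, Acsm1, which activates acids for joining to glycine, was higher in CR-MF than in MF by 0.44 (adjusted p = 0.0216), with no overlap. No gene of these lists was called in the other comparisons. Over all genes, 2.8% were called higher and 2.62% lower between MF and CR, and 0.55% higher between CR-MF and MF. The few calls per list are given beside these shares and are not read as results about the lists.

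Some cell type markers moved in the same comparisons. The mean level of 7 hepatocyte markers per mouse was 12.86 to 12.97 in MF, 12.92 to 13.10 in CR-MF, 12.96 to 13.21 in CR and 12.89 to 12.99 in C. Between MF and CR, the hepatocyte markers Cps1 (-0.29) and Tat (-0.46), the periportal marker Pck1 (-0.40) and the macrophage marker Cd163 (-1.96) were lower in MF, and the cholangiocyte marker Pkhd1 (0.51) and the stellate cell marker Pdgfrb (0.65) were higher. Between CR-MF and MF, the cholangiocyte marker Epcam was lower in CR-MF (-0.78, adjusted p = 0.0216). The 6 cholangiocyte markers had mean levels per mouse of 5.20 to 5.38 in CR-MF and 5.26 to 5.98 in MF, with 1 of the 6 under the filter limit in its mean. Per list, means were higher in MF than in CR for 1 of 4 tested hepatocyte markers (median -0.22), 0 of 3 periportal (median -0.40), 4 of 7 Kupffer cell and macrophage (median 0.29), 4 of 5 cholangiocyte (median 0.13) and 5 of 6 stellate cell markers (median 0.23), so Cd163 lay against the median of its list. The 7 Kupffer cell and macrophage markers had 7.53 to 8.95 in MF and 7.85 to 8.62 in CR, and the 6 stellate cell markers 8.52 to 8.89 in MF and 8.31 to 8.53 in CR. No marker was called in the other comparisons. Over all genes, 2.8% were called higher and 2.62% lower between MF and CR, and 0.893% lower between CR-MF and MF. The part of these differences in the results for the conjugation genes was not tested.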

How the data were processed

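Liver RNA was hybridised to Affymetrix Mouse Gene 1.1 ST arrays, 1 per mouse. For 35556 transcript clusters the deposited table gives log2 intensities, which the authors normalized and summarised with RMA. These clusters are those of the manufacturer, whereas the methods describe probe sets by Entrez ID. For a gene with several single-symbol clusters the one with the highest mean was used. All 43 genes matched RefSeq (GRCm38.p6) by gene ID.

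Groups were compared with limma 3.58.1 in R 4.3.3 (lmFit, then eBayes with a trend on intensity; residual degrees of freedom 23), two-sided, with Benjamini-Hochberg adjustment over 13993 genes. The fit was tested on simulated data. Array medians lay between 5.38 and 5.48, and the number of arrays limits the precision. Genes and lists were chosen with earlier results of these data known. Values are given for genes called in any comparison, for the 2 smallest p in each direction and comparison, and for the gene with the highest mean of each subfamily.

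Alternatives were quantile normalization, no filter, a stricter filter (intensity above 100), IBMT, the mean of a gene's clusters, blocks for plate, well row or animal number, a fit of plate G150 only and each mouse left out. Plate and well are read from array titles. The title of the array of C mouse 9 carries a suffix whose meaning is not given in the sources used here.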

Additional observations from a re-analysis of the deposited data

Results flagged for a closer look

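Among 76 combinations of a named gene and a diet group, 8 held a mouse far from the rest of its group by Dixon's test, where chance alone gives about 1 in 20. They involved 6 mice. In the CR-MF group, mouse 15 was high for Sult1e1 (6.61, the next 4.62) and low for Sult2a8 (10.72, the next 11.14), and mouse 1 was high for Sult5a1 (7.94, the next 7.22). MF mouse 9 was low for Gstm3 (8.98, the next 10.83). In the C group, mouse 13 was high for Mgst1 (12.83, the next 12.51) and for Ugt3a1 (11.09, the next 10.40), and mouse 5 was low for Sult1d1 (10.36, the next 10.79). CR mouse 7 was low for Ugt3a1 (9.70, the next 10.25).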

How the results depend on the processing

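The 31 combinations of a named gene and a comparison followed here were those with an unadjusted p under 0.05 in the main fit. Over their 1093 alternative values, 0 changed sign, 1023 stayed on their side of the threshold, 47 lost the call and 23 gained it. Most of these values reuse nearly all the arrays, so a kept sign says little. Plates G151 and G152 alone were not among them. Some differences had the other sign there, such as that of Gstp1 between CR-MF and MF on G152 (-0.19). The count between CR-MF and C went from 2 to 1 with the replicate block (animal number) and to 1 on plate G150 alone, both times with Gstp1 called and Gstm2 not. That between MF and CR went from 2 to 0 with the well row as a block and to 0 on plate G150 alone. With the replicate block the count stayed 4 between CR-MF and MF, but Gstm2 lost its call (adjusted p = 0.109) and Sult1e1 gained one (adjusted p = 0.0135). Between MF and CR it stayed 2, again Gstp1 and Ugt2a3. Leaving out single mice gave 0 to 1 called genes between CR and C, 0 to 0 between MF and C, 0 to 2 between CR-MF and C, 0 to 5 between MF and CR, 0 to 1 between CR-MF and CR and 2 to 9 between CR-MF and MF. The cause was not tested. Whether animal numbers pair the mice is not stated in the sources used here. Deviations from group means over genes correlated with a median r of 0.0942 (-0.255 to 0.357) in 27 pairs of the same number. In 244 other pairs the median was -0.0235. These values describe the pairs and cannot settle the question. Well row as a block could not be fitted for comparisons with CR-MF. For MF against CR it left only the 2 CR arrays of row G to compare with MF, so the calls lost there rest on few arrays. Signals near the filter limit, such as those of Sult1e1, and group sizes of 5 to 8 limit what can be called.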
